A study of Mus musculus with 2 samples.

Results

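Open chromatin was described at 6 genes of the intermediate filament network, Des, Synm, Vim, Nes, Lmna and Plec, out of 21853 protein-coding genes on the placed chromosomes. The genes form a named list that was selected on the peak values, listed bases and footprints of these same 2 libraries, so their levels are given as a description and no test was run on them. Chromatin of the gastrocnemius, the large muscle of the calf, was assayed by DNase-seq, in which open DNA is cut by DNase I and the cuts are sequenced. The material came from male B6CASTF1/J mice, the first-generation cross of C57BL/6J and CAST/EiJ, at 10 days of age. There was 1 group with 2 biological replicates, each labelled as tissue of 3 males. Both carry the same donor record, and whether the 3 males were pooled into 1 library is not stated, so the difference between the libraries may hold animal and technical variation together.

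Intermediate filaments are rope-like polymers that tie organelles, sarcomeres and the nucleus to the cell surface. Desmin is the filament of mature muscle and links neighbouring myofibrils at the Z-disc, while vimentin and nestin are the filaments of immature muscle and of many non-muscle cells, and synemin joins the desmin filament as a partner. Lamins A and C line the inside of the nuclear envelope, and plectin, a giant cytolinker of the plakin family, clamps desmin to the Z-disc, the sarcolemma, mitochondria and the nucleus through isoforms that start from different first exons.

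The deposited peaks numbered 123255 in replicate 1 and 150088 in replicate 2, and 78.2% of the peaks of replicate 1 were found in replicate 2. A peak's value is the authors' signal at the peak, scaled to depth. All values were whole multiples of 1 step per library (0.00544 and 0.00587), here read as 1 tag, so a counting interval could be given, and it covers counting error only. A gene was called open where a peak overlapped 500 bp either side of the start of a coding transcript in both libraries. All 8 skeletal muscle markers were open, against 66.0% of all protein-coding genes. Among them were Acta1 (3.11 and 6.41), Ckm (6.06 and 9.60), Tnnt3 (1.05 and 3.23) and Myog (1.62 and 2.58). The median of the 8 was 2.93 in replicate 1 and 5.65 in replicate 2. Both lay below the medians of all promoters open in both libraries, 4.64 and 6.44. None of 4 hepatocyte markers had a promoter peak. Markers of other cells of the tissue were open too, namely 4 of 5 for fibroblasts, 5 of 5 for endothelium, 5 of 5 for smooth muscle and pericytes, 3 of 5 for Schwann cells and 4 of 4 for satellite cells, against 0 of 4 for macrophages and 2 of 4 for cardiac muscle. In this bulk tissue a value cannot tell more open nuclei from more cuts per nucleus, nor which of these cells it came from.

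All 6 genes were open in both libraries, against 66.0% of all protein-coding genes (67.8% in replicate 1 and 68.0% in replicate 2), and since these values chose the list nothing is read from that count. Lmna and Synm had the highest promoter peaks of the 6. The Lmna value is that of a peak centred 262 to 292 bp inside the start of 1 isoform, lamin C2. At the start of lamins A and C the peak had 6.92 in replicate 1 and 10.5 in replicate 2. That was below Synm in both libraries and below Vim (7.74) in replicate 1. Plec, Vim and Des followed, and Nes was the lowest. Vim was above 74.1% of all open promoters in replicate 1 and above 48.5% in replicate 2. Of the 6 genes, 4 lay above the median of the 14419 promoters open in both libraries, which was 4.64 in replicate 1 and 6.44 in replicate 2.

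**Figure D1:**
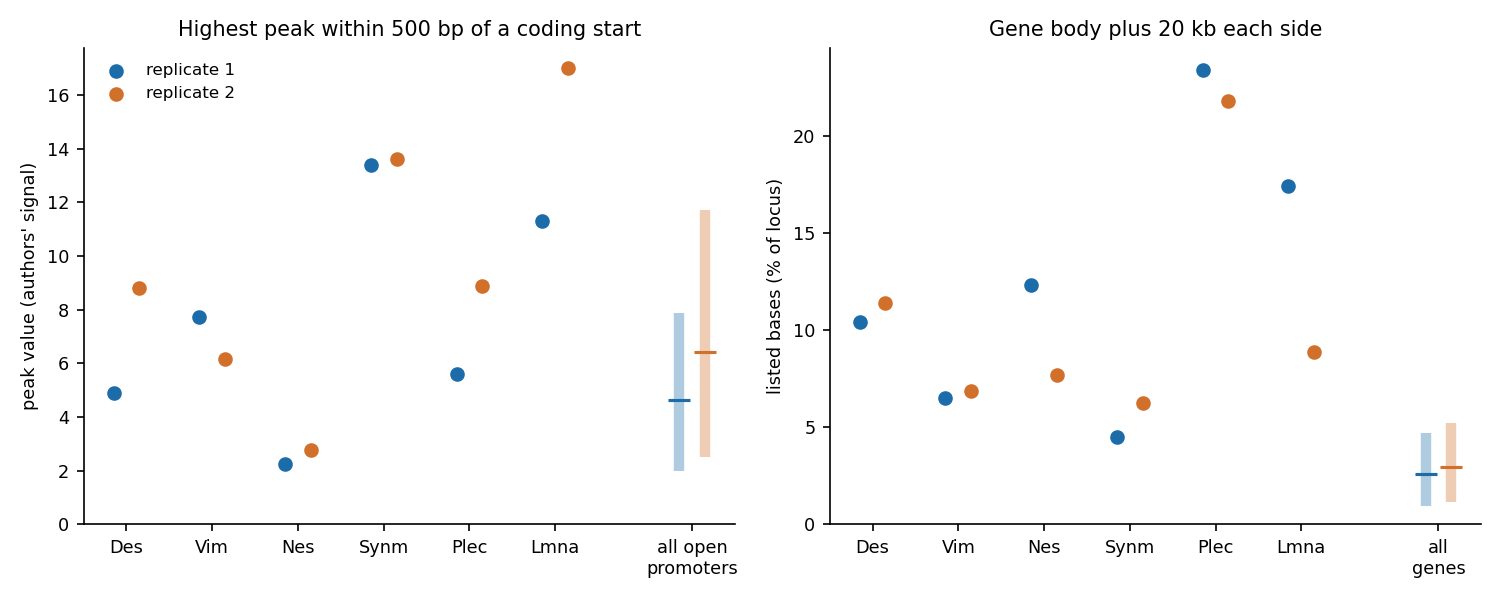
Left, the authors' signal at the highest peak within 500 bp of a coding start, for each gene in replicate 1 (blue) and replicate 2 (orange), with the median and quartiles of all open promoters as a dash and a bar. Right, the percentage of bases listed at an FDR under 0.05 in the gene body plus 20 kb each side, with the median and quartiles of all protein-coding genes. Lmna and Synm stand highest on the left and Plec stands highest on the right, where all 6 genes lie above the median of all genes. The Lmna values on the left are those of the peak near the lamin C2 start.

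The order among the higher genes was not stable between the libraries. Synm had the higher value in replicate 1 (13.4, against 11.3 for Lmna) and Lmna in replicate 2 (17.0, against 13.6 for Synm). In replicate 1 Vim (7.74) stood above Plec (5.60) and Des (4.91). In replicate 2 Plec (8.87) and Des (8.79) stood above Vim (6.16). Nes, at 2.24 and 2.76, was below the other 5 in both. Of the 6 genes, 5 had the higher value in replicate 2, as most promoters did: the ratio of replicate 2 to replicate 1 had a median of 1.36 over all open promoters, with quartiles of 1.09 and 1.65. Des had the largest ratio of the 6, 1.79, and Vim the smallest, 0.796. The 95% Poisson intervals of the libraries overlapped for Synm and not for the other 5 genes, and they did not overlap at 73.1% of all open promoters, so nothing is read from that count.

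The share of each locus that was open followed another order. A base is called listed where the authors gave it an FDR under 0.05, and locus cover is the part of the gene body and its 20 kb flanks made up of such bases. It was 23.4% and 21.8% at Plec, more than in 99.6% of all genes in each library. At Des it was 10.4% and 11.4%, more than in 95.7% and 96.3% of genes. Lmna (17.4% and 8.87%) and Nes (12.3% and 7.69%) had more in replicate 1, Vim had 6.50% and 6.84%, and Synm had 4.47% and 6.24%. The median over all genes was 2.57% and 2.93%, and all 6 genes were above it in both libraries. Plec had the most cover with 5, 20 and 50 kb flanks, but the order at the low end depended on the flank. As means of the libraries, Nes had 10.0%, Vim 6.67% and Synm 5.35% with 20 kb. With 5 kb Vim (16.1%) was above Nes (10.2%) and Synm (8.41%), and with 50 kb Vim (3.94%) was below Nes (7.88%) and Synm (4.49%).

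The 6 promoters also differed in sequence composition. The ratio of observed to expected CpG was taken within 500 bp of 1 start a gene, that with the highest peak in replicate 1. It was 0.745 at Nes and 0.710 at Des, near the median of 0.725 over open promoters, and 0.840 at Synm, above 75.2% of them. It was 0.529 at Vim, 0.458 at Lmna and 0.304 at Plec, and 5.74% of open promoters were lower than Plec. The Plec value is that of a 1hij start, and over all Plec starts the ratio ranged from 0.155 at isoform 1d to 0.738 at isoform 1f. The RefSeq start of Vim had 0.656.

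Desmin has a single coding start, at chr1:75360329 on the plus strand (mm10). A peak over it, chr1:75360181-75360400, had a value of 4.91 in replicate 1 (95% interval 4.59 to 5.24, 902 tags) and 8.79 in replicate 2 (8.35 to 9.24, 1497 tags). Its promoter is shown because it is the muscle-restricted member of the family. The window holds 250 bases before to 50 after the RefSeq start (GRCm38.p6, the build of mm10), chr1:75360042-75360341, and capitals mark bases inside a footprint, a stretch shielded from cutting, of both libraries:
Des promoter: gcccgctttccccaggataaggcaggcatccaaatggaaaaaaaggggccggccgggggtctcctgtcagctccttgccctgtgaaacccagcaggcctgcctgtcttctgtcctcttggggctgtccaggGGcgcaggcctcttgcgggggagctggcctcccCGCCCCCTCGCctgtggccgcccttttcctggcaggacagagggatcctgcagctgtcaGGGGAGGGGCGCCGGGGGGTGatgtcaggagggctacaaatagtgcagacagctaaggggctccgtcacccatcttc
Bases inside a footprint of both libraries make up 34 of its 300. The muscle E-box CAGCTG, a form of the E-box CANNTG to which MyoD-family factors bind, starts at base 215 just before the footprint at the right, and 16.3% of the 32851 RefSeq promoters hold it. The SP/KLF box GGGCGG, found in 35.7% of promoters, was present at bases 164 and 182 on the other strand.

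The Des locus, taken as the gene body plus 20 kb each side, held 18 peaks in each library, of which 15 of replicate 1 were found in replicate 2. A cluster of 3 peaks 15209 to 15899 bp before the start made the widest region of the locus, 1108 bp at chr1:75344282-75345389, where bases listed in both libraries are joined over gaps of up to 150 bp. The widest region was 713 bp with gaps of up to 50 bp and 623 bp at an FDR under 0.001. From 5′ to 3′ these peaks had values of 1.62, 1.65 and 1.53 in replicate 1 and 3.11, 3.74 and 2.46 in replicate 2. The highest peaks away from the start lay downstream of the gene. The first, at chr1:75370461-75370640, had 3.95 and 5.43 and lay 10221 bp from the start. The second, at chr1:75371501-75371680, had 3.27 and 5.45 and lay 11261 bp from it. Both lie within the predicted gene Gm15179, and the first also has a start of Gm15179 within 500 bp. Another, at chr1:75375041-75375280 (1.86 and 3.53), overlapped start windows of Gm15179 and of Speg, a kinase gene of striated muscle that neighbours Des. It held a MEF2 site outside the shared footprints. Of 15 shared peaks in this locus, 4 were at the start of another gene and 1 at the start of Des itself.

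Synemin has its main cluster of starts at chr7:67759684-67759742 on the minus strand. The peak there had 13.4 in replicate 1 (12.9 to 14.0) and 13.6 in replicate 2 (13.0 to 14.1). Like the other Synm peaks named below, it also lies within Ttc23. It lies within Gm45102 too, which has a start within 500 bp of it, and the values do not tell these genes apart. The libraries agreed within counting error, and 96.0% of open promoters in replicate 1 and 81.5% in replicate 2 were lower. Its promoter is shown as the member window with the most bases in shared footprints, 98 of 300, at chr7:67759693-67759992 on the minus strand:
Synm promoter: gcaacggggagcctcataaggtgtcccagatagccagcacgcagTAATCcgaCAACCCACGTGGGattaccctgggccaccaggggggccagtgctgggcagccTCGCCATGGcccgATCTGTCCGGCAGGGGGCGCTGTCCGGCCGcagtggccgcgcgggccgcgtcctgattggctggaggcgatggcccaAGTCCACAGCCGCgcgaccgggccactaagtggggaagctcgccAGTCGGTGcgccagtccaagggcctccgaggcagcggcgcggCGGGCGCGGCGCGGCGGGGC
An E-box at base 58 lies wholly inside a footprint of both libraries, and an NFY box, CCAAT, at base 173 lies outside them. An E-box of any kind is held by 72.3% of promoters and CCAAT by 37.4%.

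A later coding start of Synm, at chr7:67740594 inside the gene, was also open, with nearest peaks of 0.919 in replicate 1 and 1.39 in replicate 2. It lay far below the main start in both. Its highest peak away from the starts, at chr7:67714221-67714400 inside Ttc23, had 1.90 and 1.58. The intron peak at chr7:67741701-67742080 had 1.07 in replicate 1 and 1.17 in replicate 2, and that at chr7:67754762-67754954 had 0.582 in replicate 1 and 2.10 in replicate 2. Of all genes, 73.0% and 81.9% had less of their locus listed than Synm with 20 kb flanks, the lowest share among the 6 in each library at that flank.

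Vimentin, the filament of mesenchymal cells, had 3 coding start positions close together on chromosome 2, counted as 1 open start. A single region, joined in the same way, ran across them for 2465 bp, chr2:13573405-13575869, and 283 of the 88279 such regions in the genome were wider. With gaps of up to 50 bp the widest region of the Vim locus was 1814 bp. At its first starts the value was 7.74 (7.34 to 8.15) in replicate 1 and 6.15 (5.78 to 6.53) in replicate 2. At the start of the RefSeq transcript, chr2:13574281, the value was 2.82 (2.58 to 3.08) in replicate 1 and 6.16 (5.80 to 6.55) in replicate 2. So the first starts stood above the RefSeq start in replicate 1, and in replicate 2 both were level. In introns further into the gene a pair of peaks had 2.40 and 3.09 in replicate 1 and 2.34 and 2.59 in replicate 2. The remaining named site, 14948 bp before the start, had 0.337 and 1.07.

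Nestin, an intermediate filament of progenitor cells and of the neuromuscular and myotendinous junctions of muscle, had a promoter peak of 2.24 (2.02 to 2.46) in replicate 1 and 2.76 (2.51 to 3.02) in replicate 2 at chr3:87970921-87971180. Of open promoters, 27.5% in replicate 1 and 27.0% in replicate 2 were lower. The highest peaks of its locus were not at its start. A peak 15971 bp downstream of the start, chr3:87987021-87987180, had 14.9 in replicate 1 and 11.3 in replicate 2, and 99.8% of all shared sites away from starts had a lower geometric mean. A peak 10053 bp before the start, chr3:87960921-87961160, had 4.77 and 9.26. Another, at chr3:87982351-87982560, had 1.55 and 3.16. The first 2 were above the Nes promoter in both libraries, and the last was below it in replicate 1 and above it in replicate 2. The 3 sequences are shown on the plus strand because they are the 3 highest peaks of this locus away from starts among those found in both libraries, with capitals as above:
Nes downstream peak A: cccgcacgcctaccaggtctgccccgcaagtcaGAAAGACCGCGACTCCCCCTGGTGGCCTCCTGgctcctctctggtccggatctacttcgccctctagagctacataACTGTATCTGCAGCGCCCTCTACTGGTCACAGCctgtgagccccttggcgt
Nes upstream peak: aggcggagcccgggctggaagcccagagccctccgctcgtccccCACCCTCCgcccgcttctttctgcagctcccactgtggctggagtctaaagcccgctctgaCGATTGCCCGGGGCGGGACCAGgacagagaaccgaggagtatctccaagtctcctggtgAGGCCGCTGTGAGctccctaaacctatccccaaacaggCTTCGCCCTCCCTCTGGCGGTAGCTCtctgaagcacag
Nes downstream peak B: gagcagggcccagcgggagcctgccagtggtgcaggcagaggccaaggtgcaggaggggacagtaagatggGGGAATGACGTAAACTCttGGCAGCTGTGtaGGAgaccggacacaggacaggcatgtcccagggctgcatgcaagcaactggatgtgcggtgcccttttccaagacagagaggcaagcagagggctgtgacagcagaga
Downstream peak A holds the core motif of the insulator protein CTCF at base 124, inside a footprint of both libraries. Of 70702 shared sites away from starts, 7.29% hold that core within 200 bp, against 0.557% of promoters. Downstream peak B holds a muscle E-box at base 93 and an MCAT box, CATTCC, the TEAD-factor element of muscle genes, at base 73 on the other strand, both inside shared footprints. Within 200 bp, 26.6% of such sites hold the muscle E-box and 12.7% the MCAT box, and among all 173040 shared footprints 1.88% and 0.519% do. The upstream peak holds SP/KLF boxes at bases 51 and 116, of which the one at 116 is inside a shared footprint.

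Lmna had 3 separate coding starts on the minus strand of chromosome 3, and all 3 were open. The start of lamins A and C, at chr3:88503335, had a peak of 6.92 in replicate 1 (6.54 to 7.31) and 10.5 in replicate 2 (10.0 to 11.0). The most upstream start, at chr3:88509956, had 6.30 and 10.4. The start of lamin C2, the isoform of germ cells, at chr3:88493312, lies in the intron of the longer transcripts. A peak centred 262 to 292 bp inside from it was the highest of any start among the 6 genes in replicate 2, with 11.3 (10.8 to 11.8) in replicate 1 and 17.0 (16.4 to 17.7) in replicate 2. It stood above both other Lmna starts in each library. The peak nearest to the C2 start in replicate 1 had only 0.674, and whether C2 transcripts were made was not tested. The C2 peak is shown, chr3:88492941-88493100 on the minus strand, because it sets the Lmna value:
Lmna C2 peak: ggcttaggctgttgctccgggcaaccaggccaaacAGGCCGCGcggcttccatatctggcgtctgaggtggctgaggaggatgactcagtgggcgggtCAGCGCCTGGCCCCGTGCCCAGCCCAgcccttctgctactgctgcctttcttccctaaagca
It holds an AP-1 box, TGANTCA, at base 82 and an SP/KLF box at base 91, both outside the shared footprints, which cover 34 of its 160 bases.

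Lmna had further open sites on both sides. A peak downstream of the gene at chr3:88467241-88467400 had 9.77 in replicate 1 and 5.87 in replicate 2, and another at chr3:88477861-88478040 had 5.20 and 3.39, so both were lower in replicate 2, unlike its starts. A peak 16434 bp before the first start, chr3:88526301-88526480, had 4.65 and 5.26 and held a CTCF core at base 41 inside a footprint of both libraries.

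The Lmna and Nes loci differed between the libraries in their number of peaks. The Lmna locus held 42 peaks in replicate 1 and 19 in replicate 2, and the Nes locus held 25 and 11. Of the peaks of replicate 1, 25 at Lmna and 17 at Nes had no partner in replicate 2. Inside the Lmna gene body 25 such peaks had values of 0.228 to 0.707, and 34.0% of its bases were listed in replicate 1 and 14.2% in replicate 2. Beside Nes, the body of its neighbour Bcan held 10 peaks in replicate 1 and 0 in replicate 2, a stretch chosen after its values were seen. Before the Nes start, the replicate 1 peak at chr3:87960581-87960740 had 2.94 and no partner in replicate 2. It lies within the widest region of the Nes locus listed in both libraries, 732 bp at chr3:87960518-87961249. The site was thus listed in replicate 2 as well, without a peak of its own. Locus cover of both genes was higher in replicate 1 as well, and the part of these peaks in it was not tested. The highest peaks of both loci, named above, were present in both libraries.

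**Figure D2:**
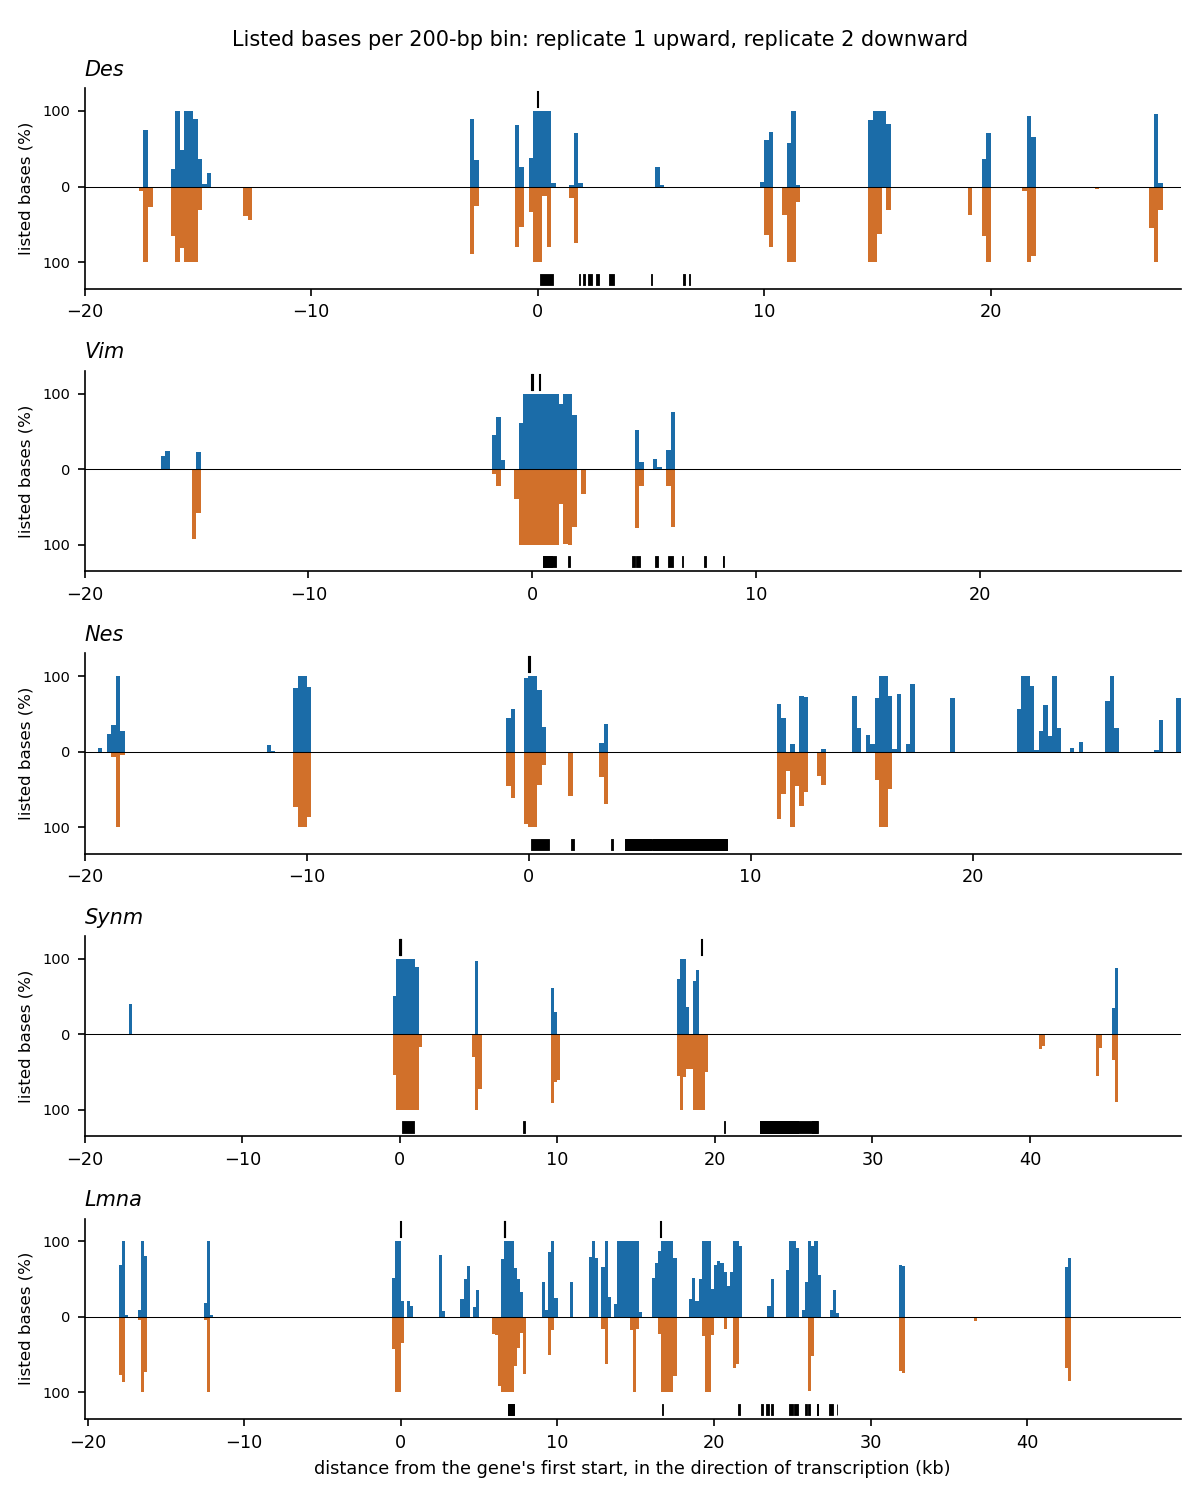
Percentage of listed bases in 200-bp bins at 5 loci, replicate 1 upward in blue and replicate 2 downward in orange, by distance from each gene's first coding start in kb. Ticks above mark coding starts and black blocks below mark coding exons. The long coding exons of Nes and Synm hold no listed base in either library, and the right end of the Nes panel (Bcan) and the Lmna gene body are fuller in replicate 1.

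Plectin had more separate open starts than any other gene. Of its 12 separate coding starts, with starts up to 500 bp apart counted as 1, 10 had a peak within 500 bp in both libraries, and those of the transcripts Plec-214 and Plec-211 did not. It was 1 of 21853 genes, or 0.00458%, with 10 or more, the next highest was Tcf4 with 7, and the median gene had 1. Since these values chose the list, nothing is read from that share. Within 250 bp, 11 of its 15 single start positions had a peak in both libraries, and 9 separate starts were open. The 10 above include the start of isoform 1c, which had no peak within 250 bp in either library. With the stricter peak set 8 separate starts were open.

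The starts of the RefSeq isoforms are given in the order of transcription. Near the 5′ end the first start of the gene had 1.17 and 0.904, and the start of isoform 1f, the form of the sarcolemma and its costameres, had 2.68 and 3.40. The start of isoform 1c, which binds microtubules, had no peak within 250 bp in either library, and the nearest, inside the gene, had 1.32 and 1.58. Further into the gene the starts were weaker at first. The start of 1e had 0.859 and 1.12, the next, of 1hij, had 0.924 in replicate 1 and no peak in replicate 2, and another 1hij start had 0.990 and 1.48. Isoform 1, the form of the nuclear envelope, had 2.17 and 3.97. Isoform 1d, which sits at the Z-disc, had 2.51 in replicate 1 and 3.29 in replicate 2. Isoform 1b, which goes to mitochondria, had 2.87 and 5.29, the highest of the isoform starts. In replicate 1 its interval (2.63 to 3.13) overlapped those of 1g (2.60 to 3.09), 1f (2.44 to 2.92) and 1d (2.28 to 2.75). It also overlapped that of the last 1hij start (2.32 to 2.79), so 1b did not stand apart in that library. A 1hij start had 2.55 and 3.73, 1g had 2.84 and 3.26, and 1a, the form of hemidesmosomes in epithelia, had 1.74 and 3.21. The muscle forms 1d, 1f, 1b and 1 lay between 2.17 and 2.87 in replicate 1 and between 3.29 and 5.29 in replicate 2. They were not set apart from all other starts. The last 1hij start lay within both ranges, and 1g within that of replicate 1. In replicate 2 the intervals of 1g (3.00 to 3.55) and 1a (2.95 to 3.49) overlapped that of 1d (3.02 to 3.57). In replicate 1 the 1a start lay below the range.

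**Figure D3:**
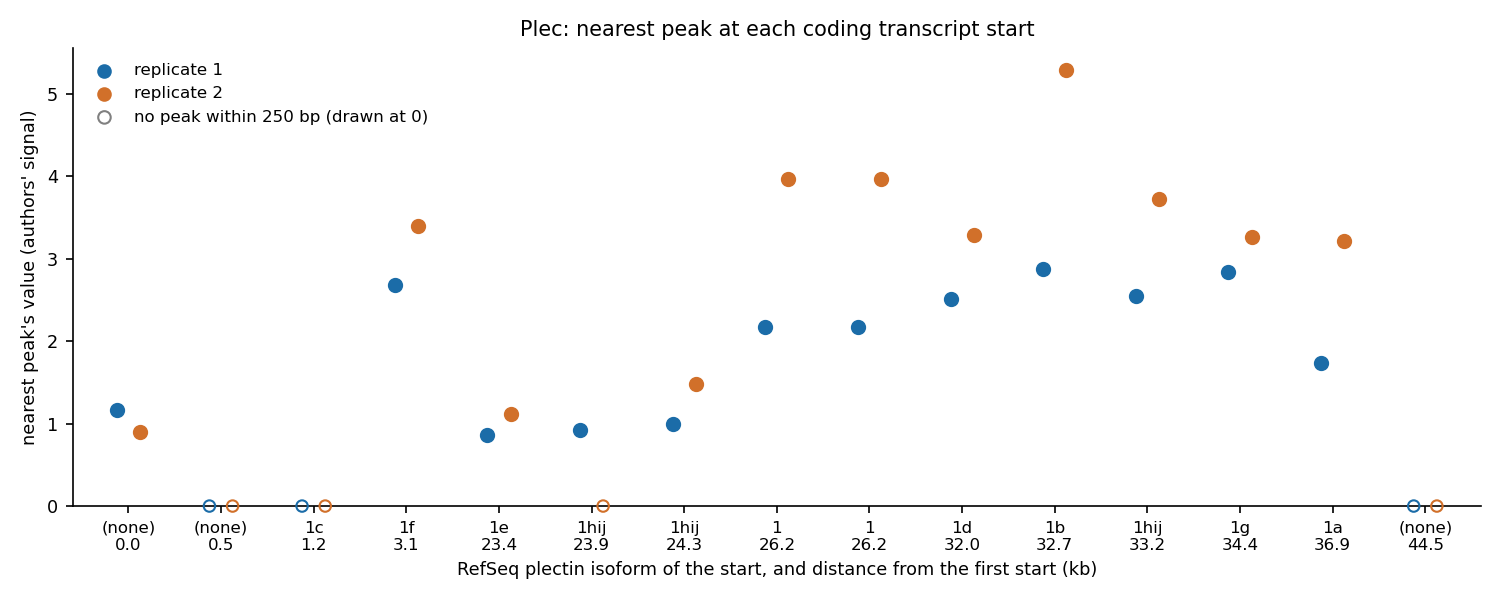
The authors' signal of the nearest peak within 250 bp of each of the 15 coding start positions of Plec, in the order of transcription, with replicate 1 in blue and replicate 2 in orange. Labels give the RefSeq isoform and the distance from the first start in kb, and open circles mark a library with no such peak. The starts from isoform 1 to isoform 1g lie at 2.17 or more in both libraries, and 1e and the first pair of 1hij starts lie at 1.48 or less.

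The highest peak within 500 bp of a Plec start, 5.60 in replicate 1 and 8.87 in replicate 2, was at no start but between the 1hij and 1g starts, at chr15:76198721-76198940. With a window of 250 bp the highest peak was that of isoform 1b instead, and the geometric mean of the libraries was 3.90, against 7.05 with 500 bp. Around these starts 1 region of 5925 bp, chr15:76196603-76202527, was listed over 99.4% of its bases in both libraries, with 4 coding starts inside it. Of 88279 such regions in the genome, 1 was wider. In single libraries the region was 6270 bp without replicate 1, where 5 were wider, and 6679 bp without replicate 2, where 7 were wider. With gaps of up to 300 bp joined, 10 were wider. It held 12 peaks in replicate 1 and 11 in replicate 2, and 20 footprints shared by both. Its CpG ratio was 0.285.

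Away from the starts, the strongest Plec peaks lay in introns. Peak A, chr15:76189901-76190120, lies downstream of the 1a start and had 9.33 in replicate 1 and 11.9 in replicate 2, higher than any Plec start in both. Peak B, chr15:76207441-76207640, between the first 1hij starts and isoform 1, had 5.10 and 8.81. Peak C, chr15:76205301-76205560, downstream of the start of isoform 1, had 2.70 and 6.27. All 3 were above the starts next to them in both libraries. They are shown on the minus strand, the strand of the gene, with capitals as above:
Plec intron peak A: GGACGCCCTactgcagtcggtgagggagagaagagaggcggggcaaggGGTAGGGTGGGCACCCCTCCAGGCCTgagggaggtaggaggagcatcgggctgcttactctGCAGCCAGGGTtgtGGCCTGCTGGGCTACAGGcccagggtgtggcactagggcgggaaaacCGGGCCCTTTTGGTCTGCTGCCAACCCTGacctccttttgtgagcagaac
Plec intron peak B: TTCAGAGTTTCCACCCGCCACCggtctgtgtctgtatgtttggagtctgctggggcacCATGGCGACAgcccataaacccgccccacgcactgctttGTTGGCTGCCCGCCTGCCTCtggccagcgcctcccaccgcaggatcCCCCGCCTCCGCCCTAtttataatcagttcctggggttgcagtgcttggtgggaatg
Plec intron peak C: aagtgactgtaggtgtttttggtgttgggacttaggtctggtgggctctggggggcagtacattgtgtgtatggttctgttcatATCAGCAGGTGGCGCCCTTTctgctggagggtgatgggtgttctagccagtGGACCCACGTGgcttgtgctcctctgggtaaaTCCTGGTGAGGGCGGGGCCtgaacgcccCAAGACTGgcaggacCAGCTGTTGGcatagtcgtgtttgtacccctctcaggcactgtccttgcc
Of the 220 bases of peak A, 93 are inside a footprint of both libraries, and its motif match is 1 SP/KLF box outside them at base 159. Peak B holds a MEF2 site, bound by a family of muscle activators, at base 157, with only its first 3 bases inside a shared footprint. An MCAT box at base 195 lies outside them. Peak B also holds SP/KLF boxes at bases 79 and 152, and the one at 152 is its only match wholly inside a shared footprint. Within 200 bp, 1.71% of shared sites away from starts hold a MEF2 site. Peak C holds a muscle E-box at base 211 and further E-boxes at bases 90 and 141, all inside footprints of both libraries, and an SP/KLF box inside one at base 177. An E-box of any kind is held by 73.9% of such sites, so its presence alone does not set peak C apart.

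**Figure D4:**
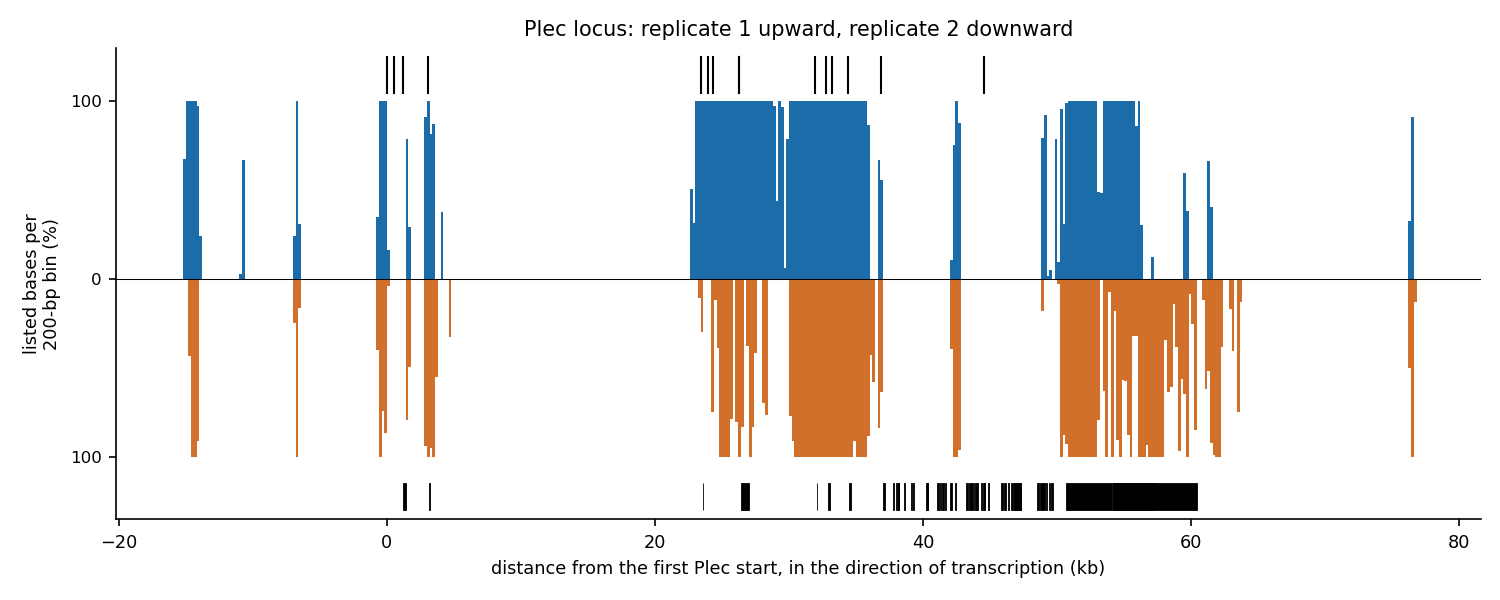
Percentage of listed bases in 200-bp bins along the Plec locus, replicate 1 upward in blue and replicate 2 downward in orange, by distance from the first coding start in kb. Ticks above mark coding starts and black blocks below mark coding exons. The 5925 bp region covers 4 starts, and the block of long coding exons at the 3′ end is listed over much of its length in both libraries.

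The 3′ end of Plec was open over its protein-coding exons, away from every start. The stretch of long coding exons, chr15:76172173-76181899, held 16 peaks in replicate 1 and 23 in replicate 2, and 57.3% and 76.7% of its bases were listed. Several of these deposited peaks overlap one another in each library, so their number is not a number of separate sites. The peaks were low throughout, from 0.315 to 0.538 in replicate 1 and from 0.252 to 0.669 in replicate 2. The longest coding exon, chr15:76172173-76178385 (6213 bp), had 36.5% of its bases listed in replicate 1 and 71.5% in replicate 2, and 26.5% in both. In the exon at chr15:76178519-76181899 (3381 bp), 83.4% of bases were listed in both libraries. The shorter of them was 1 of 5 coding exons of at least 3000 bp, of 263 (1.90%), with 50% or more of their bases listed in both, and 71 of the 263 (27.0%) had any. The other 4 were in Irs1, Numa1, Tchh and Prob1. The longest coding exons of Nes (4607 bp) and Synm (3677 bp), which also code for long tails, had no listed base in either library.

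The coding stretch and the start region of Plec differed in how footprints were shared. The coding stretch held 35 footprints in replicate 1 and 45 in replicate 2, of which 4 of replicate 1 were found again. The start region held 40 in each, of which 20 were found again. Over all 6 loci 192 of 421 footprints of replicate 1 were found in replicate 2, and over the genome 55.6% were. Of 104 peaks of replicate 1 in the 6 loci that were found in replicate 2, 28 were at a gene's own start, 28 in its introns, 18 in coding exons, 12 upstream, 10 downstream, 7 at the start of another gene and 1 in a UTR exon, and 16 of the 18 in coding exons were at Plec. Those at the Plec exons include overlapping peaks, some with the same partner in replicate 2.

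Relatives of the 6 genes were counted by group, beside the 66.0% of all protein-coding genes that were open in both libraries. No difference between the groups was tested. Of 10 other cytoplasmic intermediate filament genes, 6 were open in both, and each was lower than Des. Sync, the gene of syncoilin, a filament protein of muscle, led them at 2.96 and 3.91, followed by the neuronal filament genes Prph (1.26 and 1.34) and Ina (1.17 and 0.974). The simple-epithelial keratins Krt8 and Krt19 and the glial filament Gfap had no promoter peak in either library, and Krt18 had one in replicate 1 only, at 0.500. Of 6 other plakins, 5 were open, led by Macf1 (5.30 and 9.00), which links actin and microtubules, Dst (3.45 and 5.17), its close relative, and Dsp (1.28 and 1.16), the plakin of desmosomes. Eppk1, an epithelial plakin, had no peak. With the stricter peak set 3 of the 6 were open.

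All 14 genes of the lamina and nuclear envelope were open, led by Sun1 (11.2 and 19.3), Lbr (9.66 and 15.8) and Lemd2 (9.11 and 15.3). Sun1, which joins the lamina to the cytoskeleton, had values near those of the Lmna C2 peak. The median of this list was 5.56 and 7.56, against 4.64 and 6.44 over all open promoters. All 8 genes of desmin partners and chaperones were open, led by Bag3 (11.2 and 17.3), Dnajb6 (11.5 and 14.4) and Cryab (6.10 and 10.8), each of which helps to clear or refold damaged filament proteins. The median of the list was 3.50 and 6.01, below that of all open promoters in both libraries.

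By promoter value and locus cover in both libraries, 4 values in all over 2 libraries, the genes most like each member were Furin and Slc39a1 for Des, Sh3glb1 and Ppif for Synm, Polr2c and Mrpl10 for Vim, Rac3 and Thtpa for Nes, Junb and Nacc1 for Plec, and Snx17 and Eif2b4 for Lmna. Likeness here is the smallest distance over the 4 scaled values and says nothing of shared function. Snx17 and Eif2b4 had the same promoter values, 10.5 and 19.6. Their locus cover was 19.3% each in replicate 1, and 9.57% and 9.58% in replicate 2, so they are not counted as 2 separate likenesses.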

How the data were processed

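DNase-seq libraries of 2 gastrocnemius samples were analysed from their deposited files in mm10. Per the notes deposited with the files, each peak list, footprint list and FDR list was made from the filtered alignments of 1 library. The aligner and callers, which may shape peak height, were not given in the sources used here. Peak values are the authors' signal scaled to depth. FDR values, a p-value type of number, were deposited by the authors only for positions under 0.05, called listed bases here. Footprints were used as positions. Peaks held a median of 134 tags (replicate 1) and 122 tags (replicate 2), whole within 0.05 of a step.

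Starts, exons and genes came from GENCODE M21. The wider of 2 deposited peak sets was used. Peaks were shared at 1 bp of overlap and footprints, where counted, at 50% of the shorter. For the printed sequences and motif matches of the 6 genes, a base counted as shared where each library had a footprint over it, without that overlap rule. Regions listed in both libraries were joined over gaps up to 150 bp. Starts up to 500 bp apart were counted as 1. The RefSeq promoter table held 5 of the 6 genes, with no entry for Plec, in 6 windows, all equal to the genome. Motifs were found by exact letters on both strands: E-box CANNTG, muscle E-box CAGCTG (also an E-box), MCAT CATTCC, SP/KLF GGGCGG, NFY CCAAT, AP-1 TGANTCA, RUNX TGTGGT, NFI, MEF2, CArG and, added after the data were seen, the CTCF core. A match is a description, not a binding site.

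Genes named were the 6 members with their starts and 3 highest other peaks, and, of each related list, the 3 highest open promoters and those with no peak. Members and lists were chosen with earlier results of these data known. Overlap, start grouping and motif search were tested on simulated data. Python 3.11.15, pandas 2.3.3, NumPy 2.4.6, SciPy 1.17.1 and pysam 0.24.0 were used. Whether reads of CAST alleles mapped less often to this genome was not analysed here.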

Additional observations from a re-analysis of the deposited data

How the results depend on the processing

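Of 219 alternatives for single values and counts, 171 stayed within the spread between libraries or within 1.5 times of a count, and 48 moved. All these quantities are positive, so no change of sign was possible. For the locus cover of single genes, leaving out a replicate could not count as a move by this rule. For the promoter values of single genes it could do so only with a wider gap between the libraries than any of the 6 genes had. No paired analysis was possible because there is only 1 group. The median promoter value of the 6 genes, 6.98, was between 6.67 and 8.83 with either replicate left out. Their median locus cover, 10.5%, was 6.54% at an FDR under 0.001, 13.9% with 5 kb flanks and 8.01% with 50 kb flanks, and the order of Vim, Nes and Synm changed with the flank. Their median widest region, 1294 bp, was 1146 bp at an FDR under 0.001 and between 1374 and 1470 bp in single libraries. The share of all promoters open, 66.0%, was 64.4% with 250 bp, 67.5% with 1000 bp, 61.8% with the stricter peak set and 67.8% to 68.0% in single libraries. Open plakins numbered 3 with the stricter set, against 5. The causes were not tested. Plec kept the most separate open starts of any gene under each alternative for that count, from 8 to 11. With only 2 libraries, no spread beyond their difference can be given. Counting intervals cover counting error only.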
